A study of Mus musculus with 12 samples.

Results

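The genes described here are 10 that build, load or remodel lipoproteins in the liver: Apoa1, Apoa2, Apoa4, Apoa5, Apob, Apoc2, Apoc3, Apoe, Apom and Mttp. They were picked for their role, with earlier results of these data known, and every assembled locus whose gene column names one of them was taken. That gave 12 loci, out of 66468 loci that name 47541 genes in each of the deposited tables. Apob and Apom (2 members) have a locus on each strand, and the other 8 have 1 locus.

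Lipoproteins carry triglyceride and cholesterol through the blood. The liver wraps triglyceride around apolipoprotein B with the help of the microsomal triglyceride transfer protein (Mttp) and secretes it as VLDL, while apolipoproteins A-I, A-II and M sit on HDL. The smaller exchangeable apolipoproteins move between particles and set how fast lipoprotein lipase strips their triglyceride and how remnants are taken up, steps that differ between the fed and the fasted state.

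Total RNA was sequenced from liver of wild-type C57BL/6 mice (the methods specify C57BL/6N), all 17 weeks old and all kept on a control diet with 62 kJ% carbohydrate, 27 kJ% protein and 11 kJ% fat. The 12 libraries fall into 3 groups of 4. AL mice had free access to food. FA mice were without food for 16 h, and RF mice were without food for 16 h and then had free access to it for 6 h. The comparison of FA with AL asks which liver transcripts respond to a fast, and that of RF with FA asks which respond to the return of food. The sources used here do not give the time of collection, so a 16 h fast and a difference in time of day cannot be told apart.

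Each value is an FPKM, fragments counted relative to transcript length and library size, and the software of the authors had pooled it to 1 number per group. The tables used hold no values of single libraries, so the spread between mice, the depth and the error of a difference are unknown here, and no test was run. A ratio is called past the fold where it reached 1.5 in either direction and the FPKM was at least 1 in either group. The table for RF and FA holds 1 assembled transcript per locus, so its FA value can be a small part of the locus. AL and RF are therefore set side by side only where the FA values of both tables lay within 10% of each other, which held for 25719 loci (65.3% of the 39364 with an FA value above 0 in either table). An FPKM of 0 can be a failed estimate, since Alb, which encodes albumin, is listed at 0 in AL and FA. Other genes that define hepatocytes were abundant, such as Ahsg, the secreted glycoprotein fetuin-A (1346 in AL and 1420 in FA). Ttr, the thyroxine carrier transthyretin (2324 and 1504), was past the fold and lower in FA. Cyp2e1, a cytochrome P450 (1031 and 2654), was past it and higher. Summed FPKM of the erythroid list was 1112 in AL and 813 in FA, that of the macrophage list 44.2 and 36.4, and that of the cholangiocyte list 7.29 and 5.51. The stellate and fibroblast list (63.6 and 56.2) and the endothelial list (40.7 and 35.7) were also lower in FA. The sums of the hepatocyte list (9949 and 10499), the enterocyte list (57.0 and 77.8) and the adipocyte list (1.33 and 1.87) were higher. The part of these differences in the results was not tested. In bulk liver, fewer cells of a type and less RNA per cell cannot be told apart.

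Apoa1, Apoc3, Apoa4 and Apoa5 lie in a single cluster on chromosome 9 that spans 43340 bases, and its promoters are shown because these neighbours had unlike ratios. RefSeq promoter windows (build GRCm38.p6, 250 bases before to 50 after the RefSeq start) were matched for 9 of the 10 members, all but Apoc3. Capitals mark 2 short motifs, CAAAGTNCA, a core of the sites bound by the hepatocyte factor HNF4 alpha, and TATAAA, the TATA box. Both strands were searched, the motifs do not overlap in the windows printed, and they were chosen after the sequences had been read. The windows are Apoa4 at chr9:46240594-46240893, Apoa5 at chr9:46268358-46268657 and Apoa1 at chr9:46228380-46228679, all on the plus strand.
Apoa4: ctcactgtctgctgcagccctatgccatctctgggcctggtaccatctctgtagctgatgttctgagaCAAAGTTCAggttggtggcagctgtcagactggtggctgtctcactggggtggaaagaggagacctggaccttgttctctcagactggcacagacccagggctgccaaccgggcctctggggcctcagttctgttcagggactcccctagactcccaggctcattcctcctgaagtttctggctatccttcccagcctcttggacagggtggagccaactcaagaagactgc
Apoa5: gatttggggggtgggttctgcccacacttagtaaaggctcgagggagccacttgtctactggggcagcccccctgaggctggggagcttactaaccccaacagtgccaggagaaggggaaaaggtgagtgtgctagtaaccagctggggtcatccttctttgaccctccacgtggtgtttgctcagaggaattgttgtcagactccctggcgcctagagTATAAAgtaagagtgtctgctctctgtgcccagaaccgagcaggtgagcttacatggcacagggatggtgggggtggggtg
Apoa1: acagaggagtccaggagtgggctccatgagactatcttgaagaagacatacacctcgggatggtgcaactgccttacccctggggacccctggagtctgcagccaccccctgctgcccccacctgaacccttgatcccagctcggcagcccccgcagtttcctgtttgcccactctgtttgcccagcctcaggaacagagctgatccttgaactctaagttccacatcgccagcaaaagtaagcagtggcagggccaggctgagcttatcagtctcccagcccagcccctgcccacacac
CAAAGTTCA began 182 bases before the RefSeq start of Apoa4, and no window of the 8 other matched members held the motif as written. HNF4 alpha sites with other letters were not searched, so a window without a match can still hold such a site. The motif as written was in 464 of 32851 windows of all genes (1.41%). TATAAA began 31 bases before the start of Apoa5 in the window printed and 56 bases before that of its other window. Windows of Apob (60 bases before the start), Apoa2 (212 bases) and Apoe held it too, against 4473 of all 32851 windows (13.6%). For Apoe it was only in the window whose start lies 567 bases downstream of the GENCODE start, and genes with several windows count more than once. A match describes the letters in the window only. The RefSeq start of Apoa4 lies 148 bases downstream of the first base of the GENCODE gene model, so that window covers part of its first annotated exon.

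Across the fast, Apoa4 was the 1 member of 10 past the fold. It was 4.01-fold higher in FA than in AL, while the other 9 lay within 1.5-fold and 8 of them within 0.32 on the log2 scale. Among all loci compared, 16.1% were past the fold (2766 of 17226), with 6.83% higher and 9.23% lower. The median log2 ratio of the members was 0.10, beside -0.02 over all loci, and 8 members had a ratio above 1 and 2 below. Among the 8 were Apoa1, Apoa2 and Mttp, with log2 ratios of only 0.02, 0.02 and 0.05. The share of all loci with a ratio above 1 is not given here. Member levels in AL ran from 8.41 for Apoa4 to 6500 for Apoa2, and Apoa2 with Apoe made up 73.8% of the summed FPKM of the members.

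**Figure D1:**
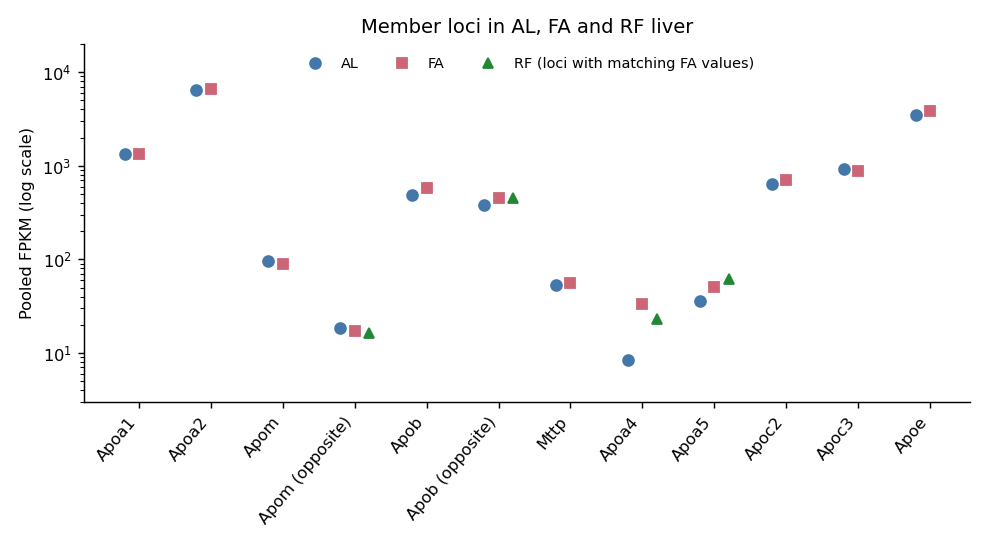
Pooled FPKM (log axis) of the 12 member loci in AL (circles), FA (squares) and, for the 4 loci with matching FA values, RF (triangles), 1 value per group with no error bars because the tables used hold pooled values. The FA square lies clearly above the AL circle only for Apoa4 (8.41 and 33.7), and levels span from Apoa4 to Apoa2 (6500 in AL).

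Of the HDL proteins, Apoa1 and Apoa2 stood at nearly the same level in fed and fasted liver. Apoa1 (chromosome 9, 46228580 to 46230466, plus strand) encodes apolipoprotein A-I, the main HDL scaffold and the activator of LCAT, and had an FPKM of 1328 in AL and 1345 in FA. Apoa2 (chromosome 1, 171225054 to 171226379, plus strand) encodes the next most abundant HDL protein, and its FPKM was 6500 in AL and 6610 in FA. Both log2 ratios were 0.02, a difference of 1.29% for Apoa1 and 1.70% for Apoa2. Nr1i3, the gene of the nuclear receptor CAR, ends 4352 bases before Apoa2 begins and shares its listed interval. Its FPKM was 22.4 in AL and 73.8 in FA, a log2 ratio of 1.72, so this neighbour on the same strand was past the fold while Apoa2 was not. A locus on the other strand of that interval, named for Tomm40l, read 565 in AL and 573 in FA (log2 ratio 0.02).

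Apom, the HDL lipocalin that carries sphingosine-1-phosphate (chromosome 17, 35128997 to 35132050, minus strand), had the lowest ratio of the members. Its FPKM was 95.1 in AL and 88.7 in FA, a log2 ratio of -0.10. The locus on its opposite strand read 18.4 in AL, 17.0 in FA and 16.5 in RF, with log2 ratios of -0.12 for FA over AL and -0.04 for RF over FA. Neither strand thus differed by more than 0.32 on the log2 scale in FA over AL. The annotated-strand row of the RF and FA table read 3.01 in FA and 2.13 in RF, but that FA value was 3.39% of the locus, so it stands for a minor transcript.

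The genes of VLDL assembly also stayed within 0.32 on the log2 scale. Apob (chromosome 12, 7977648 to 8016835, plus strand) encodes the structural protein that each VLDL or LDL particle carries as a single copy. Its FPKM was 481 in AL and 571 in FA, 18.7% higher, a log2 ratio of 0.25. The opposite-strand Apob locus was at 377 in AL, 449 in FA and 452 in RF, so its ratio was 0.25 for FA over AL and 0.01 for RF over FA on the log2 scale. Mttp, the endoplasmic reticulum protein that transfers lipid to the nascent apolipoprotein B (chromosome 3, 138089854 to 138144968, minus strand), had an FPKM of 53.7 in AL and 55.8 in FA (log2 ratio 0.05). The FPKM of Apob was 8.96 times that of Mttp in AL and 10.2 times in FA. Gm43691, an opposite-strand locus in the interval of Mttp, read 2.77, 3.28 and 2.84 in AL, FA and RF. Trmt10a, a neighbour on the plus strand, read 1.07 in AL and 0.703 in FA, past the fold.

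Apoa4 encodes apolipoprotein A-IV, an exchangeable protein of chylomicrons, VLDL and HDL that in rodents is made by the intestine and the liver. It had the largest ratio of the members. Its FPKM was 8.41 in AL, 33.7 in FA and 22.8 in RF. FA stood 4.01-fold above AL (log2 ratio 2.00), and 105 of the 17226 loci (0.610%) had a ratio at least as high. RF stood between the fed and the fasted value, 1.48-fold below FA (log2 ratio -0.56, just inside the fold) and 2.71-fold above AL. On the FPKM scale RF lay above AL by 57.0% of the difference between FA and AL. The same share was 47.3% for the overlapping antisense Gm10680, described next. That share sets RF from the RF and FA table against an FA value of 217 from the other table. The RF and FA table gave 198 for FA, with which the share would be larger, so the 2 shares are not like for like. The groups are different mice with 1 pooled value each, so the error of these shares is unknown. By its annotated-strand locus alone Apoa4 was the least abundant member, with 0.0621% of their summed FPKM in AL and 0.237% in FA. On that reading the FPKM of Apoa2 was 773 times that of Apoa4 in AL and 196 times in FA. This rank and these shares take the split of fragments between the strands as listed, and Gm10680 read 54.1 in AL and 217 in FA.

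The Apoa4 locus cannot be read apart from its antisense partner Gm10680. Apoa4 (chromosome 9, 46240696 to 46243459, plus strand) has 3 exons, and Gm10680 (46242621 to 46243529, minus strand, biotype antisense) has 2, which share 632 bases with the last exon of Apoa4 (46242279 to 46243459). Those are 90.03% of the exonic bases of Gm10680, and 520 of them are coding in Apoa4. The first 60 bases of the overlap, chr9:46242621-46242680, are shown as read in the Apoa4 transcript and as read in that of Gm10680, since a fragment from here is assigned to either gene by its strand alone.
Apoa4 strand: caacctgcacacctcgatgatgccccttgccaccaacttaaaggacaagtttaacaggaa
Gm10680 strand: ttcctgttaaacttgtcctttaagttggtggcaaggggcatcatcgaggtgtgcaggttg
The libraries were strand-specific by the labels, but the sources used here do not say whether the counting used strand. Gm10680 had an FPKM of 54.1 in AL and 217 in FA, a log2 ratio of 2.01 beside the 2.00 of Apoa4. In the RF and FA table it read 198 in FA and 131 in RF, a log2 ratio of -0.59 (1.504-fold lower, just past the fold). Its FPKM was 6.43 times that of Apoa4 in AL and 6.45 times in FA. The ratio in RF was 5.76, from the RF and FA table, where the FA value of Gm10680 was 9.13% lower and that of Apoa4 the same. Both features thus moved by nearly the same factor, and the noncoding one stood higher in all 3 groups.

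**Figure D2:**
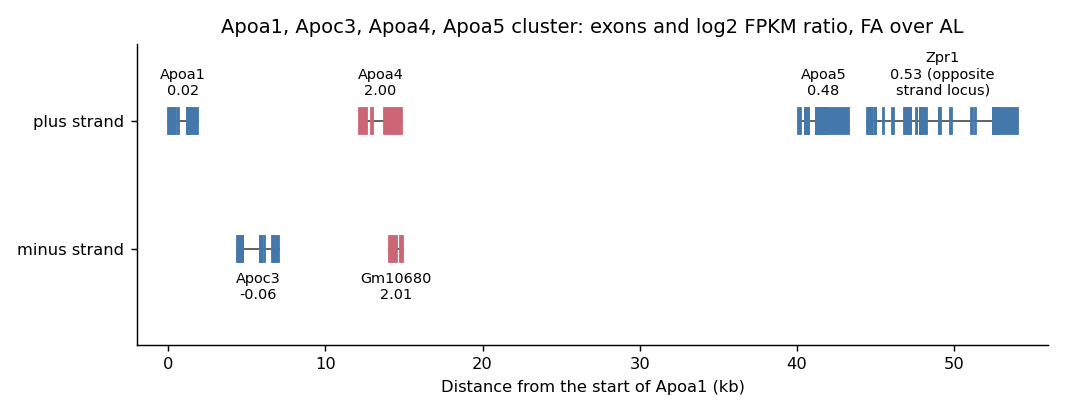
Annotated exons (boxes) of the chromosome 9 cluster on the plus and minus strand against the distance from the start of Apoa1 in kb, with the log2 ratio of pooled FPKM, FA over AL, under or over each name. Apoa4 (2.00) and the overlapping Gm10680 (2.01), in red, stand out beside Apoa1 (0.02), Apoc3 (-0.06) and Apoa5 (0.48).

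Since apolipoprotein A-IV is abundant in intestine, markers of enterocytes were read beside it. Of 12 such genes, Fabp6, Alpi, Sis and Cdx1 were listed at 0 in both AL and FA, and 9 were under an FPKM of 1. Lct, the lactase gene, read 0.00447 in AL and 0.00516 in FA, and Slc5a1, the sodium-glucose transporter, read 0.102 and 0.111. The summed FPKM of the list was 57.0 in AL and 77.8 in FA, most of it from an opposite-strand locus of Fabp2, the intestinal fatty acid binding protein (36.6 in AL, 57.5 in FA and 53.3 in RF). The other markers compared were Apobec1, the enzyme that edits Apob mRNA, which stood lower in FA (6.39 in AL and 3.86 in FA), and Anpep, an aminopeptidase (12.9 and 15.5).

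The loci nearest to Apoa4 in both ratios were compared among 785 protein-coding loci with matching FA values and an FPKM of at least 10 in any group. The measure was the straight-line distance between the pairs of log2 ratios (FA over AL, RF over FA), over the 3 groups. The 5 nearest belonged to 4 genes and lay at distances of 0.59 to 0.72. They were both strands of Ehhadh, a peroxisomal enzyme of fatty acid oxidation (opposite strand: 61.3 in AL, 163 in FA and 112 in RF), Igfbp2, which binds insulin-like growth factors (34.2, 90.5 and 64.9), Mat1a, the liver enzyme that makes S-adenosylmethionine (326, 806 and 592), and Cyp2e1, a cytochrome P450 (1031, 2654 and 2260). All 5 had a lower FA over AL ratio than Apoa4, between 1.31 and 1.41 on the log2 scale.

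Among the members that act on lipolysis, Apoa5 was the 1 with a log2 ratio beyond 0.32. Apoa5 (chromosome 9, 46268633 to 46271919, plus strand) encodes a low-abundance protein that promotes lipoprotein lipase activity. Its FPKM was 36.2 in AL, 50.4 in FA and 61.3 in RF. FA stood 1.39-fold above AL (log2 ratio 0.48), RF stood 1.22-fold above FA (0.28), and RF stood 1.69-fold above AL (0.76). Unlike Apoa4, it was thus highest in the refed group. A locus on the other strand of its listed interval, named for its neighbour Zpr1, read 54.6 in AL and 78.9 in FA (log2 ratio 0.53). In the RF and FA table that locus read 76.9 in FA and 87.3 in RF (0.18), the same order of groups as Apoa5. The plus-strand Zpr1 locus had an FPKM of 11.7 in AL and 16.1 in FA (0.47).

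Apoc3 (chromosome 9, 46232933 to 46235636, minus strand) encodes an inhibitor of lipoprotein lipase and of remnant uptake. It lies 2466 bases from Apoa1 and 5059 bases from Apoa4. Its FPKM was 918 in AL and 879 in FA, a log2 ratio of -0.06. The ratio of Apoc3 to Apoa1 was 0.691 in AL and 0.653 in FA. In the RF and FA table the gene column of this locus names Apoa1 and its values were 0.228 in FA and 0.141 in RF, 0.0259% of the locus in FA, so no refed level of Apoc3 is given. An unnamed plus-strand locus in the interval shared by Apoa1 and Apoc3 read 1.58 in AL, 3.77 in FA and 1.73 in RF, 2.39-fold higher in FA than in AL. It was singled out after its values were seen.

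Apoc2 encodes the cofactor that lipoprotein lipase needs (chromosome 7, 19671579 to 19677941, minus strand). Its locus also names Apoc4 and Gm44805, which the assembly joined, so the value is that of all 3. It read 634 in AL and 707 in FA, 11.5% higher (log2 ratio 0.16). The transcript in the RF and FA table, named for Apoc2 alone, read 131 in FA and 129 in RF (log2 ratio -0.02), which is 18.6% of the locus in FA. Apoe, the ligand that brings remnants to receptors on hepatocytes (chromosome 7, 19696109 to 19699188, minus strand), had an FPKM of 3492 in AL and 3873 in FA, 10.9% higher (log2 ratio 0.15). Its row in the RF and FA table held a value near 0 and gives no refed level.

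Refeeding could be followed for few members. The row of the RF and FA table had an FPKM of at least 1 for 5 members (Apoa1, Apoa4, Apoa5, Apoc2 and Apom), of which 0 were past the fold, beside 19.0% of all 10401 loci compared (1974). For Apoa1 it read 1167 in FA and 1096 in RF (log2 ratio -0.09), where the FA value differed by 13.3% from that of the other table. The median log2 ratio of the 5 was -0.09, beside 0.02 over all loci. Restricted to loci with matching FA values, 4 members had one (Apoa4 and Apoa5 on the annotated strand, Apob and Apom on the opposite strand), and 0 of these 4 were past the fold, beside 17.2% of 8338 loci. Set against AL, 2 of these 4 stood at least 1.5-fold higher in RF, Apoa4 and Apoa5, beside 5.28% of 8259 loci, while the opposite-strand Apob locus was 1.20-fold and that of Apom 0.893-fold. Both comparisons use the same FA libraries, so an FA value that is high by chance would raise the first ratio and lower the second.

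**Figure D3:**
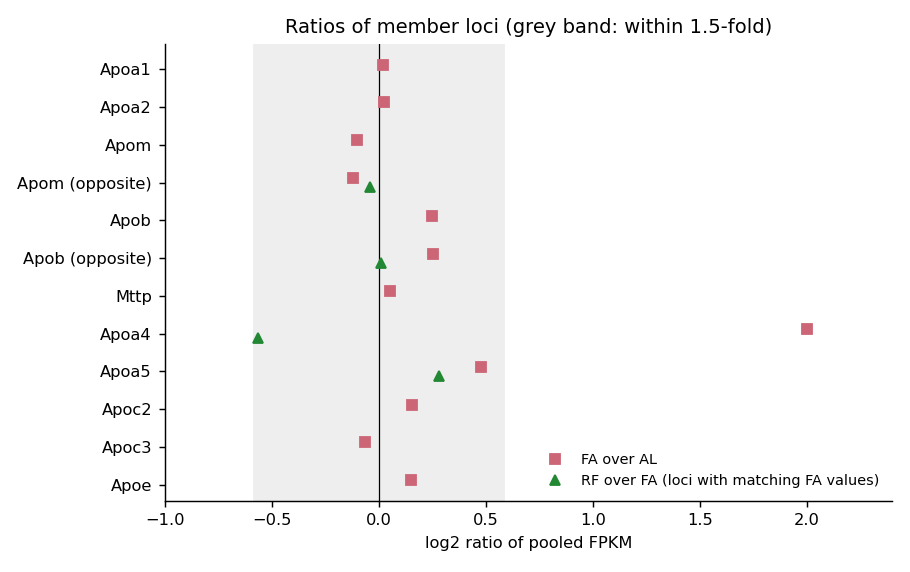
Log2 ratios of pooled FPKM for the 12 member loci, FA over AL (squares) and RF over FA (triangles, for the 4 loci with matching FA values), with a grey band for ratios within 1.5-fold. Only Apoa4 leaves the band in FA over AL (2.00), and its RF over FA ratio (-0.56) sits just inside the other edge.

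That both strands of a gene had like ratios was common in these tables. Among 3128 genes with a locus on each strand and an FPKM of at least 1 in AL and FA on both, the median absolute difference between the log2 ratios of the strands was 0.10, and 49.0% differed by under 0.1. Pearson's r across genes was 0.89 and Spearman's rho 0.78, over pooled values from the same libraries, and genes are not independent replicates. Of 359 genes past the fold on the annotated strand, 352 had the same sign on the other strand and 250 were past the fold there in the same direction. For Apob the strands differed by 0.0035 on the log2 scale and for Apom by -0.020. The opposite-strand FPKM in AL was 78.3% of the annotated one for Apob and 19.4% for Apom, beside a median of 59.1% over the 3128 genes. The source of the opposite-strand signal was not tested.

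**Figure D4:**
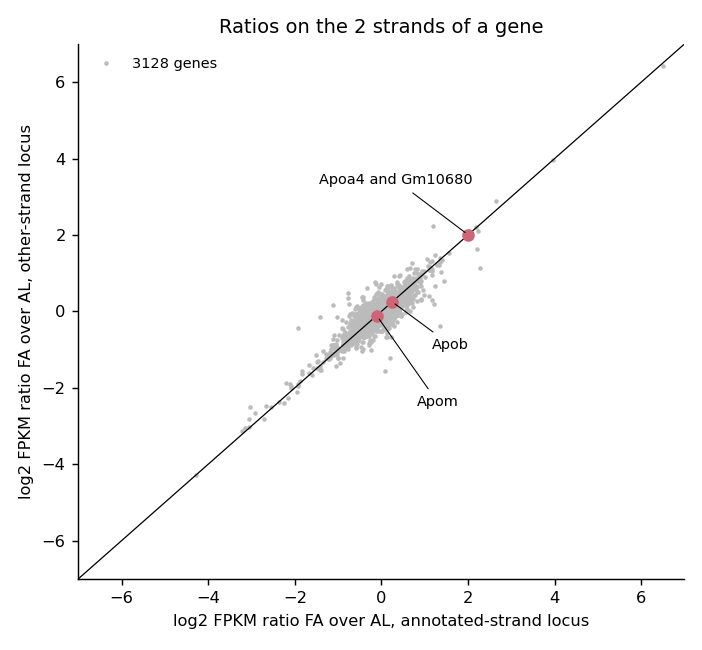
Log2 ratio of pooled FPKM, FA over AL, of the locus on the annotated strand (x axis) and on the other strand (y axis) for 3128 genes (grey), with the line of equal ratios. Apob, Apom and the pair of Apoa4 with Gm10680 (red) lie on the line, the pair near 2.00 on both axes.

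Around the members, the other apolipoprotein genes also lay within the fold, while genes that act on lipoproteins in plasma or take them up lay on both sides of it. Of 10 other apolipoprotein genes compared, 0 were past the fold in FA over AL. Apoc4 among them has the locus of Apoc2, and the 9 separate loci had a median log2 ratio of 0.08. Apoc1, an inhibitor of lipoprotein uptake beside Apoe, read 4756 in AL and 4245 in FA, and Apoh, beta-2-glycoprotein I, had the highest ratio of that list (803 and 1041). Of 30 genes of assembly and secretion 1 was past the fold upward and 3 downward, beside the 6.83% and 9.23% of all loci, with a median of -0.12 over 29 loci, since Ces3a and Ces3b share 1. Aadac, a microsomal lipid hydrolase, read 143 in AL and 90.9 in FA, and Pdia3, a protein disulfide isomerase, 73.5 and 48.2. Opposite-strand loci stood for Mia3, which helps load large cargo at endoplasmic reticulum exit sites (47.1 and 82.5), and Sort1, the sorting receptor sortilin (6.26 and 3.38). In RF over FA, 17.2% of matching loci were past the fold in either direction, and the share higher alone is not given here. Of 19 genes of this list with a matching locus, 5 were past the fold, all higher. Among them Ces1d, a carboxylesterase that acts on stored triglyceride, read 158 in FA and 336 in RF, and an opposite-strand locus of P4hb, the disulfide isomerase that is the partner subunit of Mttp, read 45.6 and 74.9. The others were opposite-strand loci of Sel1l, Sec24d and Canx.

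In the list of plasma remodelling, 2 of 10 genes compared were higher and 3 lower in FA, beside 6.83% and 9.23% of all loci. Angptl4, a secreted inhibitor of lipoprotein lipase, read 2.38 in AL, 17.5 in FA and 3.15 in RF in its opposite-strand locus, and Angptl8, a secreted regulator of the same enzyme in the fed state, 14.6, 3.85 and 17.2. Both thus came back to within 1.5-fold of AL in the refed group, where Apoa4 did not. Lcat, which esterifies cholesterol on HDL with apolipoprotein A-I as its activator, read 76.6 in AL and 116 in FA. Lower in FA were Lpl, lipoprotein lipase itself (opposite strand, 6.16 in AL, 3.79 in FA and lower again in RF at 1.89), and Abca1, which loads lipid onto apolipoprotein A-I (25.9 and 16.4). Of 9 receptor and uptake genes compared, 2 were higher and 1 lower, beside the same shares of all loci. Lsr, a receptor for triglyceride-rich lipoproteins, read 24.2 in AL and 14.3 in FA. Scarb1, the HDL receptor SR-BI, read 17.9 and 30.8, and Mylip, a ubiquitin ligase, 0.810 and 1.62 in an opposite-strand locus.

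Transcription regulators with known roles at these genes were 2 higher and 3 lower of 27 compared (18.5%), a share near the 16.1% of all loci, with a median log2 ratio of 0.20. Hnf4a, a main activator of apolipoprotein genes in hepatocytes, read 71.8 in AL and 78.0 in FA (log2 ratio 0.12). Creb3l3 (CREBH), which in mice activates Apoa4 and Apoa5 during fasting, had an FPKM of 29.7 in AL and 43.8 in FA (log2 ratio 0.56) and Ppara, the fatty acid sensing receptor, 17.2 and 24.3 (0.50), both short of the fold. Past it were Srebf1 (66.1 and 8.08), the main activator of lipogenic genes, Mlxipl (23.9 and 11.97), which encodes the glucose-responsive factor ChREBP, and Srebf2 (2.68 and 1.59), the sterol-responsive factor, all lower in FA. The coactivators Ppargc1b (1.02 and 1.81) and Ppargc1a (1.96 and 3.18) were higher in FA, both in opposite-strand loci. These levels were not tested against those of the members.

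**Figure D5:**
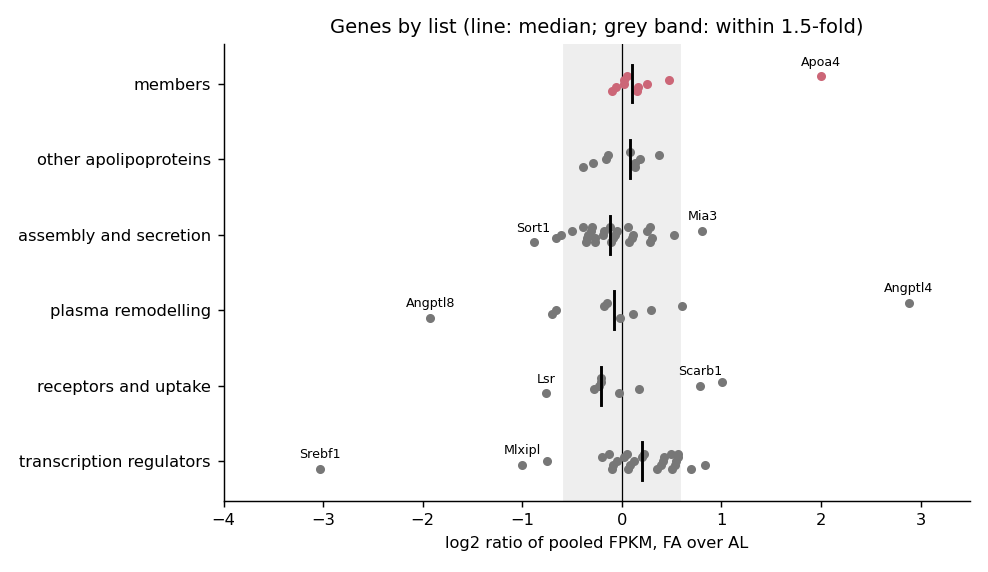
Log2 ratio of pooled FPKM, FA over AL, of each gene compared (points) in the member list and 5 related lists, with the median over the separate loci of each list as a black line and a grey band for ratios within 1.5-fold. The members and the other apolipoproteins sit in the band except Apoa4 (2.00), while Angptl4, Angptl8 and Srebf1 lie far outside it.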

How the data were processed

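Liver RNA of 3 groups of 4 mice was measured by total RNA sequencing after depletion of ribosomal RNA, and groups came from the sample labels. According to the submitters' processing notes and the methods, reads were trimmed with flexbar, filtered with Bowtie2 2.2.9, aligned to GRCm38 with STAR 2.6.0c, and assembled and compared with the Cufflinks suite 2.2.1. The deposited values are FPKM, pooled by the authors' Cuffdiff run into 1 value per group, in a table of FA and AL loci and a table of RF and FA transcripts (1 per locus). Replicate values, counts and depth were not analysed here (0 further columns of single samples), and the sources used here do not say how FPKM was scaled across libraries. The tables also hold the authors' log2 ratio, test statistic, p-value, q-value and a mark of significance, which were not used.

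Ratios were computed from FPKM without a pseudocount in Python 3 with pandas and numpy, and the calculation was tested on simulated data. Where a gene had several loci, the one with the highest mean FPKM of AL and FA stood for it. The strand of a locus came from the numbering of the loci, and gene strands, exons and positions from GENCODE release M21. The 10 members were named at every locus, and from other lists the genes past the fold, up to 6 per list by size, besides genes that share an interval with a member. Apoc1, Apoh, Hnf4a, Creb3l3, Ppara and the markers named fall outside that rule and were chosen after their values were seen. Some genes of the related lists are not reported here. Members and lists were chosen with earlier results of these data known. Alternatives were pseudocounts, centring, the choice of locus, the fold and the tolerance for matching values.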

Additional observations from a re-analysis of the deposited data

How the results depend on the processing

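No value of a single library was used, so leaving out each replicate was not run, and the ratios computed here carry no measure of the spread between mice. No paired analysis was possible because the deposited columns are group values that carry no replicate number. The count of members past the fold in FA over AL was 1 under pseudocounts of 0.1 and 1, median centring, a fold of 2 and each choice of locus, and 2 (Apoa4 and Apoa5) at the lower fold tried, a log2 ratio of 0.32. In RF over FA it was 0 under the same settings and 2 (Apoa4 and Apom) at that lower fold. The median member log2 ratio for FA over AL (0.10) was 0.13 after centring on all loci and 0.054 among loci that name the gene alone. For RF over FA (-0.09) it was -0.11 after centring, -0.29 among loci that name the gene alone, -0.055 with FPKM summed over the loci of a gene and -0.015 among loci with matching FA values, a setting chosen after seeing the data. Counting only the locus with the highest FPKM of each gene, 2 members matched (Apoa4 and Apoa5), with a median log2 ratio of RF over AL of 1.10. With a tolerance of 20% Apoa1 was a further match (3 members, median 0.76). With any locus of a gene on either strand, chosen after seeing the data, there were 4 (median 0.51). Scaling RF by the FA values of the tables could change no value, since those of Apoa4 and Apoa5 were the same in both. No single member ratio reversed, but a pseudocount cannot change the sign of a ratio. The annotated-strand setting kept the same loci, since all 10 main loci were on that strand. The largest shift on the log2 scale was 0.12 in FA over AL and 0.46 in RF over FA, the latter for Apom, whose row stands for 3.39% of its locus. Without a filter on low values 31.6% (FA over AL) and 45.5% (RF over FA) of all loci were past the fold, and at an FPKM of 10 or more 20.3% and 22.6%.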
